A study of Mus musculus with 6 samples.

Results

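The 33 genes described here encode the desmosome, the classical cadherins and their catenin and nectin partners, and were chosen by gene symbol, 33 of the 24453 symbols in the count files. All 33 symbols were present. RNA was sequenced from sorted follicle cells of newborn (postnatal day 0) mouse back skin, in 3 libraries of the genotype given as control and 3 of the genotype Ring1a-/- Ring1b-/I53A, called mutant here. Ring1a (gene Ring1) and Ring1b (gene Rnf2) are the ubiquitin ligases of Polycomb repressive complex 1, and I53A is an allele of Ring1b known to impair its ligase activity. The mutant joins loss of Ring1a with 1 null and 1 I53A allele of Ring1b, these are not separated by any group, and the labels give no further allele, no driver of recombination and no pooling of animals. The labels do not say whether the libraries of a group came from separate animals, so the p-values measure the spread between these libraries, which may in part be technical.

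Desmosomes join the keratin filaments of neighbouring epithelial cells. Their adhesive parts are desmogleins (Dsg) and desmocollins (Dsc), cadherins that bind across the gap between cells, and inside the cell plakoglobin (Jup) and plakophilins (Pkp) tie them to desmoplakin (Dsp), which holds the filaments. Adherens junctions use classical cadherins (Cdh) in the same way, with alpha-catenin (Ctnna1) and vinculin (Vcl) in their link to actin. In these junctions p120-catenin (Ctnnd1) steadies the cadherins at the membrane, and nectins with afadin (Afdn) lie beside them. Stratified epidermis and hair follicles use Dsg1, Dsg3, Dsc1, Dsc3, Pkp1 and Cdh1, with Dsg4 in the hair shaft and Cdh3 in follicle buds, whereas heart muscle relies on Dsg2, Dsc2, Pkp2 and Cdh2, nerve cells on Cdh4, Cdh6, Cdh8, Cdh10, Ctnna2 and Ctnnd2, and vessels on Cdh5.

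Library totals lay between 14335156 and 18811587 counts. Levels are given as counts-per-million (CPM) values, and as CPM per kb of exon where genes are compared with each other. A gene without reads in a library may still have had up to 3 counts there, or 0.164 to 0.204 CPM, by counting error alone. Ring1 was at 16.8 to 22.1 CPM in controls and 3.23 to 7.10 CPM in mutants (edgeR, adjusted p = 0.0113). The protocol text gives a gate for Sca1-positive interfollicular cells, while every sample is labelled hair follicle. Sca1 (gene Ly6a) was near the floor in both groups (0.852 ± 0.411 and 1.23 ± 0.245 CPM, SD, n = 3 each), while all 8 listed hair follicle markers were detected, with summed levels of 1920 to 2410 CPM in controls and 1590 to 2110 CPM in mutants. Among these edgeR called 1, the stem cell receptor gene Lgr5, which fell from 178 to 83.7 CPM (adjusted p = 0.0125). DESeq2 called 3 of the 8, limma-voom 1, and 4 had an unadjusted p under 0.05 (edgeR). With the replicate block 4 fell, among them Lgr5 and Sostdc1 (345 ± 130 and 141 ± 57.4 CPM, adjusted p = 0.000252). In the same fit 1 rose, the keratin Krt17 (208 ± 23.1 and 348 ± 84.2 CPM, adjusted p = 0.00366). Of the suprabasal epidermis list 7 genes were in the files, and their summed level was above that of the follicle list in every library, at 4090 to 5580 CPM in controls and 2680 to 4350 CPM in mutants. The keratins Krt1 (1570 to 4020 CPM over all libraries) and Krt10 (731 to 1520 CPM) made up most of this sum. Sums over different genes therefore do not compare the numbers of cells of each type. None of these 7 was called by edgeR, DESeq2 or limma-voom, with 3 at an unadjusted p under 0.05. With the replicate block the upper-layer keratin Krt1 fell (3358 ± 764 and 2126 ± 510 CPM, adjusted p = 0.00154), while Krtdap (203 ± 37.9 and 313 ± 60.1 CPM, adjusted p = 0.00578) and Grhl3 rose. The 8 basal keratinocyte genes had the highest sum of the marker lists, 14100 to 17700 and 15800 to 20900 CPM. The sums of the 8 immune genes did not overlap between the groups, at 58.0 to 91.6 CPM in controls and 33.4 to 44.8 CPM in mutants. Of this list Cd68 (36.7 ± 7.77 and 21.6 ± 4.42 CPM) was lower in each mutant, with an adjusted p of 0.145 and of 0.0190 with the block. Cd68 and Cd74 (28.1 ± 20.4 and 14.6 ± 5.03 CPM) made up most of the sums. Cd74 overlapped between the groups, as did Ptprc, which was low (1.72 ± 1.29 and 0.635 ± 0.119 CPM). Which cells made the Cd68 RNA, and the part of immune cells in the levels of the junction genes, was not tested. The 10 fibroblast genes summed to 651 to 1150 CPM in controls and 800 to 1100 CPM in mutants, 12 endothelial genes to 13.5 to 23.7 and 17.4 to 49.8 CPM, and 8 neuronal genes to 7.40 to 18.9 and 22.6 to 28.9 CPM. In the neuronal sum Map2 alone held 6.28 to 8.68 CPM in controls and 16.2 to 23.0 CPM in mutants. Rbfox3 (0.391 ± 0.284 and 1.75 ± 0.0884 CPM) was also higher in each mutant, and all other neuronal genes overlapped between the groups. In such bulk samples fewer cells of a type and less RNA per cell cannot be told apart.

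Promoter sequence was matched by symbol in the RefSeq table (GRCm38.p6) for 12 of the 33 genes, with 14 windows. For Dsp, Cdh6 and Cdh8 the RefSeq start is also the gene start in the GENCODE annotation, and these are shown because they stand for a gene at the top of the range, a nerve cadherin with a low level and a nerve cadherin with 2 reads in all libraries together. Each run is the 250 bases before the start, 5′ to 3′ on the gene's strand, with CG dinucleotides in capitals, since CpG-rich promoters are the known seat of Polycomb complexes. The windows are chr13:38151044-38151293 (plus strand) for Dsp, chr15:13173676-13173925 (minus strand) for Cdh6 and chr8:99416472-99416721 (minus strand) for Cdh8.
Dsp: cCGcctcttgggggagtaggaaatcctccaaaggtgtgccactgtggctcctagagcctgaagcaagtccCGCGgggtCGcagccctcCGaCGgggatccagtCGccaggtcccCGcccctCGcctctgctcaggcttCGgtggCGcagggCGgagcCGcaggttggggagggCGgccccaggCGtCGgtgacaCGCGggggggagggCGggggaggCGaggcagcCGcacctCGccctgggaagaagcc
Cdh6: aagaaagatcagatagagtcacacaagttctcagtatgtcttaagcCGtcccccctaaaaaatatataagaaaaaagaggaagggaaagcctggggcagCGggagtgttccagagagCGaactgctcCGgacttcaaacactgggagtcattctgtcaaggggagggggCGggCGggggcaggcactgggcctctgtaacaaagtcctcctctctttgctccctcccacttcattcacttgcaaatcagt
Cdh8: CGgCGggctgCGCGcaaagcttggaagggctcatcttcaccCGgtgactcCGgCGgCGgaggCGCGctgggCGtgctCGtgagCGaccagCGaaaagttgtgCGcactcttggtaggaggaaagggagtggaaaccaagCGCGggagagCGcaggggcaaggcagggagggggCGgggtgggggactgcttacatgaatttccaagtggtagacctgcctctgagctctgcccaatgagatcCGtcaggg
Dsp held 22 CG dinucleotides, Cdh6 held 6 and Cdh8 held 20, where the median of 32841 windows was 6. Cdh8, with almost no reads, and Dsp, with a high level, thus had a like number. Cdh10 had 2 and Ctnna2 had 30, both with almost no reads in either group. The letters CAGGTG, the core that Snail and Zeb repressors are known to bind, were searched on both strands (CACCTG on the other) and occurred in 2 of the 14 windows, 1 of Ctnna2 and 1 of Pkp4, and in 17.2% of all windows. No window was matched for Cdh1, Cdh2, Cdh3, Pkp1, Pkp2 or any desmoglein or desmocollin, so the promoters of these genes were not searched.

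No gene of the 33 was called between mutant and control (edgeR quasi-likelihood test over 14345 genes, adjusted p under 0.05, two-sided), where 3% of all tested genes were (2.59% upward and 0.404% downward). Of the 33, 29 passed the filter on low counts, and Cdh2, Cdh8, Cdh10 and Ctnna2 did not. At an unadjusted p under 0.05 there were 9 of these 29 (31.0%), against 14.9% of all tested genes. DESeq2 called 1 (Pkp2), against 6.08% of the genes it tested, and limma-voom none. The labels number the libraries of each group 1 to 3. Same-numbered libraries deviated together, so a fit with the number as a block was made beside the first. This pairing was read from the same data, so the adjusted p-values of the block fit may be too small. With this replicate block 7 of the 29 were called, Pkp1, Pkp2, Dsg2, Dsg3, Cdh1 and Cdh13 upward and Ctnnd2 downward, or 24.1% against 9.38% of all tested genes (6.09% upward and 3.29% downward). The genes were chosen with earlier results of these data known, so the difference between these shares has no test. The groups did not overlap for 8 of the 29 (27.6%, 7 higher and 1 lower in mutants), near the 21.2% of all tested genes (12.1% higher and 9.15% lower). The median log2 fold change was 0.29 for the 29 genes and 0.00 for all tested genes.

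**Figure D1:**
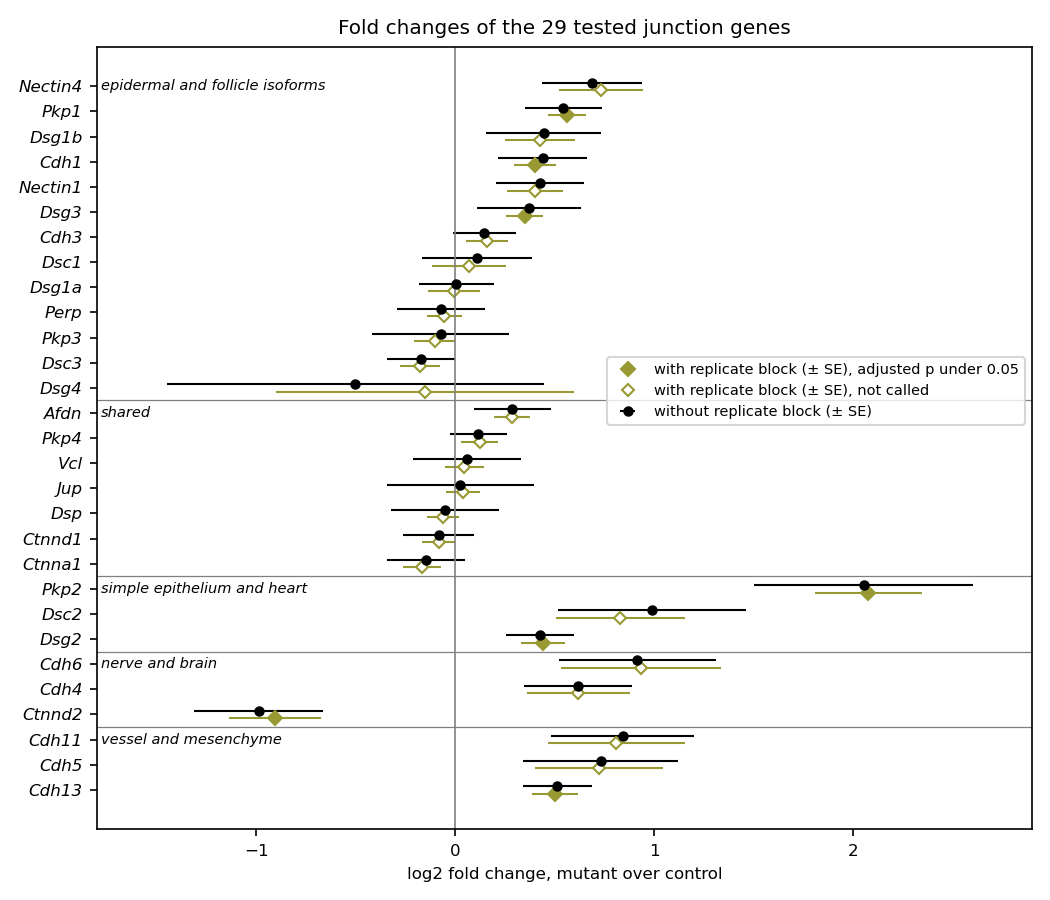
Log2 fold changes (mutant over control, x axis, ± SE) of the 29 tested genes, grouped by the tissue in which each isoform is best known, without the replicate block (black circles) and with it (diamonds, filled where the adjusted p is under 0.05). Pkp2 lies farthest to the right at 2.05 and Ctnnd2 farthest to the left at -0.99, and the 7 shared plaque and catenin genes lie between -0.15 and 0.29.

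Genes of the epidermal junction and of the shared plaque had the highest levels of the 33 per length. Perp, a membrane protein that desmosomes of stratified epithelia need, had the highest level per length, 866 ± 238 CPM per kb in controls and 824 ± 163 in mutants (SD, n = 3 each). Dsp followed at 424 ± 124 and 410 ± 135 CPM per kb, Cdh1 at 278 ± 37.9 and 377 ± 121, Pkp1 at 205 ± 48.5 and 299 ± 37.9, Dsc3 at 200 ± 24.6 and 177 ± 29.9, and Jup at 185 ± 92.0 and 188 ± 87.9. In this order Pkp1, Dsc3 and Jup did not differ from each other beyond their spread in controls. Of these 6 genes, Pkp1 and Cdh1 were called higher in mutants with the replicate block, and Perp, Dsp, Dsc3 and Jup were called neither with nor without it. None of the 7 genes used by junctions of all tissues (Jup, Dsp, Pkp4, Ctnna1, Ctnnd1, Vcl and Afdn) was called with or without the replicate block or by DESeq2, and none had an unadjusted p under 0.05. Their log2 fold changes ran from -0.15 (Ctnna1) to 0.29 (Afdn), with a median of 0.03. The exons of Ctnna1, Vcl, Afdn, Dsp, Dsg2 and Cdh8 overlap genes on the opposite strand, and no source used here gives the strand setting of the counting, so reads of such pairs cannot be told apart. Exons of Ctnnd1 overlap Gm28635 on the same strand, where no strand setting separates the reads.

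**Figure D2:**
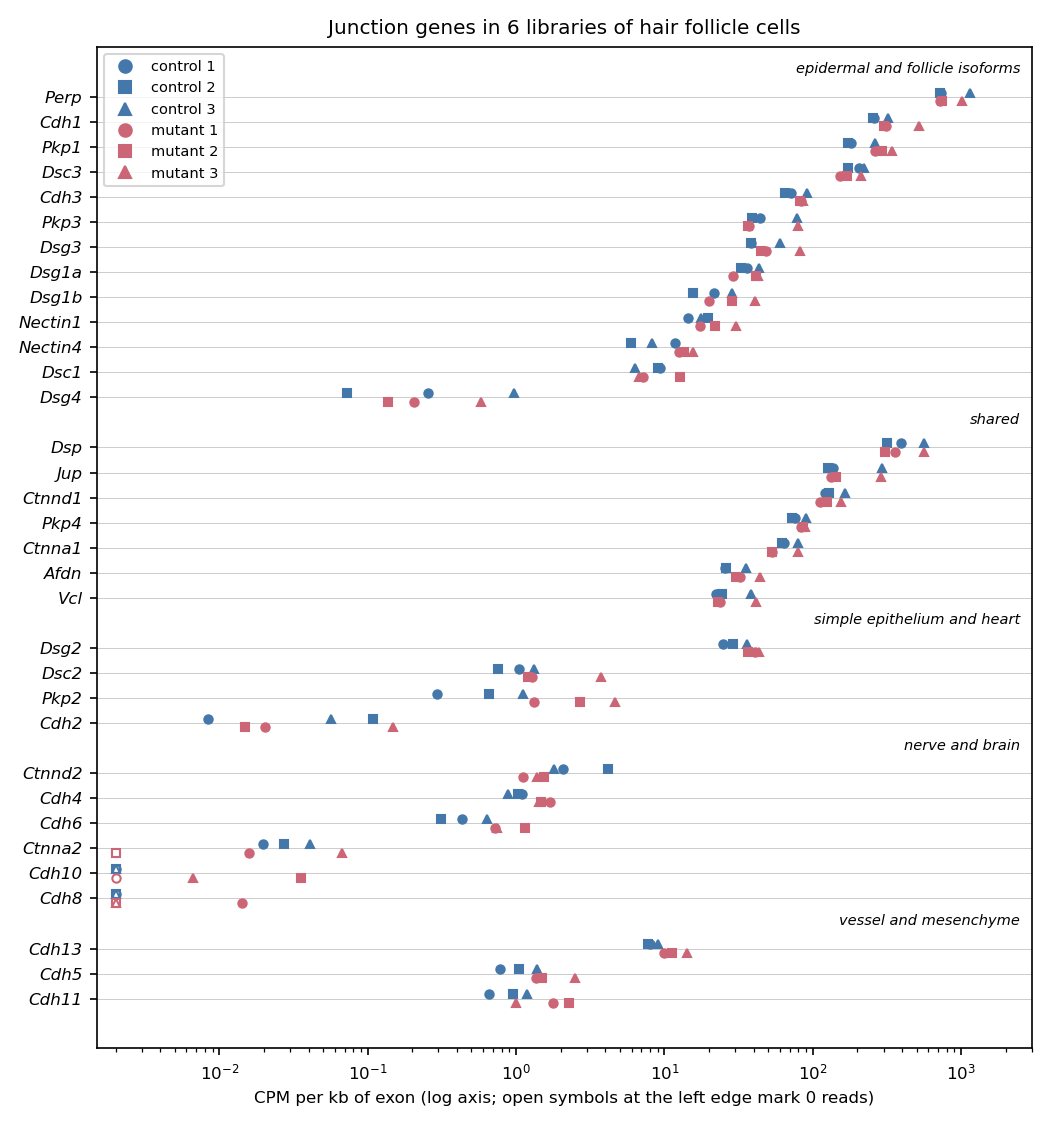
Level of each of the 33 genes in CPM per kb of exon (x axis, log scale) in the 3 control (blue) and 3 mutant (red) libraries, with the symbol giving the replicate number. Perp lies highest of the 33 genes, most isoforms of heart, nerve and vessel lie far to the left of the epidermal and shared genes, and Cdh8 and Cdh10 at 0 in every control.

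Plakophilins are the plaque proteins that cluster desmosomal cadherins. Among them Pkp2 had the largest log2 fold change of the 29 tested genes, Pkp1 was higher in every mutant, and Pkp3 and Pkp4 overlapped between the groups. Pkp1, the main plakophilin of epidermis (chromosome 1, 135871395 to 135919207, GRCm38), was at 908, 870 and 1310 CPM in controls 1 to 3 and at 1328, 1471 and 1706 CPM in mutants 1 to 3. Every mutant library lay above every control, although control 3 and mutant 1 were close. The mean went from 1029 ± 244 to 1501 ± 191 CPM, a log2 fold change of 0.54 (SE 0.19, edgeR, adjusted p = 0.202, and 0.00814 with the replicate block). Between libraries of the same number the mutant was higher by 1.46, 1.69 and 1.30 times.

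Pkp2, the plakophilin of heart muscle and simple epithelia (chromosome 16, 16213318 to 16272712), was low in controls, with 23, 56 and 105 reads or 1.57, 3.51 and 5.96 CPM. In mutants 1 to 3 it had 129, 241 and 370 reads, or 7.07, 14.4 and 24.7 CPM. The groups did not overlap, and the spread within each was wide, since number 1 was lowest and number 3 highest in both. The mean went from 3.68 ± 2.2 to 15.4 ± 8.88 CPM, a log2 fold change of 2.05 (SE 0.55, adjusted p = 0.0875, and 0.00201 with the replicate block). The same-numbered ratios were 4.51, 4.09 and 4.15, so that the spread of Pkp2 was mostly between numbers. DESeq2 called it (adjusted p = 0.00280). Without control 3, Pkp1 and Pkp2 passed also without the block (adjusted p = 0.0332 and 0.0287), the only calls among these genes when 1 library was left out. Markers of heart muscle summed to 11.0 to 14.2 CPM in controls and 11.9 to 22.3 CPM in mutants, and their part in the level of Pkp2 was not tested. Of the 8 listed genes 3 were tested and none was called (edgeR, DESeq2 and limma-voom, 1 at an unadjusted p under 0.05). The calcium channel gene Ryr2 was higher in each mutant than in each control (1.38 ± 0.494 and 3.38 ± 0.614 CPM, adjusted p = 0.291). The troponin genes Tnni3 (1.90 ± 1.27 and 3.57 ± 1.74 CPM) and Tnnt2 (7.98 ± 1.31 and 7.66 ± 3.67 CPM) overlapped between the groups. Myl2 had no read, and the myosins Myh6 and Myh7 were under 0.1 CPM on average in both groups.

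Pkp3, which is found in most desmosomes of epidermis, was at 159, 140 and 281 CPM in controls and 133, 132 and 286 CPM in mutants. It was high in the libraries numbered 3 of both groups, and its log2 fold change was -0.07 (SE 0.34, adjusted p = 0.953). Pkp4, which also serves adherens junctions, was at 452 ± 54.2 and 491 ± 15.1 CPM (0.12, adjusted p = 0.794). Per length, Pkp1 made up 60.1% to 60.8% of the plakophilin level in controls and 66.3% to 70.1% in mutants. Pkp2 made up 0.0972% to 0.259% and 0.342% to 0.902%, and thus remained the scarcest plakophilin in every library. The shares of Pkp3 and Pkp4 overlapped between the groups, with means of 15.4% and 23.8% in controls and 11.3% and 19.8% in mutants.

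**Figure D3:**
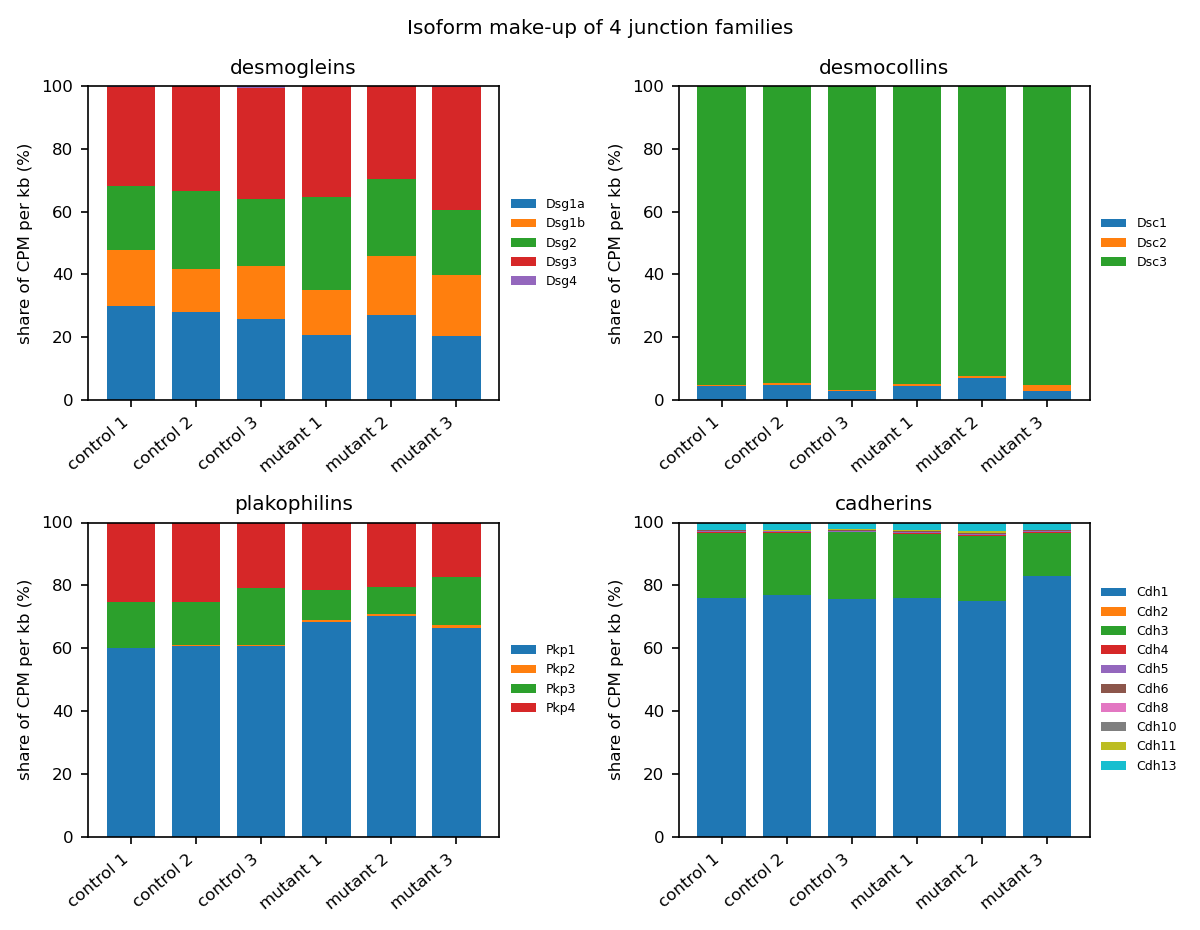
Share of each isoform (y axis, percent of the summed CPM per kb of its family) in desmogleins, desmocollins, plakophilins and cadherins, 1 bar per library. Dsc3 fills over 92% of the desmocollin bars in all libraries, and the Pkp1 part of the plakophilin bars is taller in each mutant than in each control.

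Desmogleins and desmocollins lie side by side in a single cluster of 644 kb on chromosome 18 (19960930 to 20604521), in the order Dsc3, Dsc2, Dsc1, Dsg1a, Dsg1b, Dsg4, Dsg3, Dsg2. Of these 8 genes none was called without the block (edgeR, DESeq2 and limma-voom, Dsg2 alone at an unadjusted p under 0.05), and Dsg2 and Dsg3 passed with it. Dsg2, the desmoglein of heart and simple epithelia that basal keratinocytes also make, was at 206, 239 and 300 CPM in controls and 339, 303 and 359 CPM in mutants. The highest control and the lowest mutant were 300 and 303 CPM, so the groups barely parted. Its log2 fold change was 0.43 (SE 0.17, adjusted p = 0.268, and 0.0403 with the block), with same-numbered ratios of 1.65, 1.27 and 1.20. Dsg3, the desmoglein of basal cells and the outer root sheath, was at 266, 268 and 416 CPM in controls and 340, 314 and 576 CPM in mutants. The groups overlapped because control 3 lay above mutants 1 and 2. Its log2 fold change was 0.37 (SE 0.26, adjusted p = 0.583, and 0.0476 with the block), with same-numbered ratios of 1.28, 1.17 and 1.39. Without mutant 3 it was 0.04, and without control 3 it was 0.63.

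The other desmogleins overlapped between the groups. Dsg1a and Dsg1b, near-identical copies of the desmoglein of upper epidermis whose reads may be split between them and Dsg1c, were at 213 and 86.7 CPM in controls and 214 and 118 CPM in mutants (log2 fold changes 0.01 and 0.44, adjusted p = 0.992 and 0.542). The value of Dsg1b was 0.14 without mutant 3, 0.245 without control 2, 0.69 without control 3 and 0.67 without mutant 1. Dsg4, the desmoglein of the hair shaft and inner layers of the follicle, had 13, 4 and 59 reads in controls and 13, 8 and 30 in mutants. Its mean in both groups rested on the library numbered 3 (3.35 CPM in control 3 and 2.01 CPM in mutant 3), with a log2 fold change of -0.50 (SE 0.95, adjusted p = 0.875), and without control 3 of 0.91. As shares of the desmoglein level per length, Dsg3 had 33.4% and 34.7%, Dsg1a 27.9% and 22.8%, Dsg2 22.3% and 24.8% and Dsg1b 16.1% and 17.5% in controls and mutants. All of these overlapped between the groups.

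Dsc3, the desmocollin of basal layers, made up 94.6% to 96.7% of the desmocollin level per length in controls and 92.4% to 95.2% in mutants. Dsc1, of the upper layers, was at 41.6 ± 8.39 and 44.8 ± 16.8 CPM (log2 fold change 0.11, adjusted p = 0.912). Dsc2, the desmocollin of heart and simple epithelia, was at 5.52, 4.02 and 6.98 CPM in controls and 6.74, 6.38 and 19.8 CPM in mutants. Only mutant 3 lay clearly above the controls. Its log2 fold change was 0.99 (SE 0.47, adjusted p = 0.376, and 0.156 with the block), and without mutant 3 it was 0.25. Mutant 3 also had the highest sum of several marker lists, such as endothelial (49.8 CPM), heart muscle (22.3 CPM), Merkel cell (53.4 CPM) and basal keratinocyte genes (20900 CPM). The neuronal, fibroblast, immune, suprabasal and follicle sums were highest in other libraries. The part of any of these in the level of Dsc2 was not tested.

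Among classical cadherins, Cdh1 (E-cadherin of epithelia) and Cdh3 (P-cadherin of basal cells and hair placodes) were the bulk in every library. They lie 46.1 kb apart on chromosome 8. Cdh1 was at 1184, 1156 and 1470 CPM in controls and 1429, 1381 and 2359 CPM in mutants. Control 3 was above mutants 1 and 2, and mutant 3 was the highest library by far. The log2 fold change was 0.44 (SE 0.22, adjusted p = 0.411, and 0.0456 with the block), with same-numbered ratios of 1.21, 1.19 and 1.605. Without mutant 3 it was 0.14. Cdh3 was at 331 ± 59.3 and 367 ± 8.62 CPM (0.15, SE 0.16, adjusted p = 0.760). Per length, the 8 cadherins other than these made up 3.11% to 3.42% of the cadherin level in controls and 3.21% to 4.42% in mutants.

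Cdh2 (N-cadherin), the classical cadherin of heart muscle and nerve cells, was near the floor. It had 1, 14 and 8 reads in controls and 3, 2 and 18 in mutants, or 23 reads in each group. The regulators known to lower Cdh1 and raise Cdh2 in cells that leave an epithelium were low or overlapped: Snai1 was at 0.347 ± 0.214 and 1.04 ± 0.676 CPM, Twist1 at 0.485 ± 0.613 and 0.234 ± 0.212, Zeb1 at 2.27 ± 1.16 and 2.39 ± 1.77, and Snai2, which keratinocytes also make, at 305 ± 144 and 214 ± 26.1. Of 13 listed factors that act on cadherin genes 9 were tested and none was called (edgeR, DESeq2 and limma-voom, none at an unadjusted p under 0.05). The median log2 fold change of these 9 was -0.23, with 4 above 0. Trp63 (1977 ± 259 and 1562 ± 2.29 CPM, edgeR, adjusted p = 0.339) was lower in each mutant than in each control. So was Grhl2 (185 ± 26.8 and 149 ± 2.08 CPM, edgeR, adjusted p = 0.388). With the block 1 rose, Grhl3, a factor of epidermal barrier formation (97.2 ± 27.3 and 152 ± 74.0 CPM). Its adjusted p was 0.0243 there and 0.395 without the block.

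Cadherins and catenins of nerve cells were low, with Ctnnd2 the highest of them in controls (27.6 ± 13.2 CPM). Cdh8 had no read in controls and 2 in mutants, all in mutant 1. Cdh10 had none in controls, and 6 reads in mutant 2 and 1 in mutant 3. The mutant mean of Cdh10 was 0.142 CPM, where 3 counts over the 3 control libraries together correspond to 0.0622 CPM. Of its 7 reads, 6 came from mutant 2. Ctnna2, the alpha-catenin of neurons, had 2, 3 and 5 reads in controls and 2, 0 and 7 in mutants. For Cdh8, Cdh10 and Ctnna2 no difference was detectable beyond a few reads at this depth.

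Cdh4 (R-cadherin of retina and brain, chromosome 2, 179442431 to 179899373) was at 7.90, 7.53 and 6.36 CPM in controls and 12.3, 10.7 and 10.4 CPM in mutants. Each mutant lay well above each control, with a log2 fold change of 0.62 (SE 0.27, adjusted p = 0.322, and 0.179 with the block) and same-numbered ratios of 1.55, 1.42 and 1.64. Cdh6 (K-cadherin of kidney and neural tube, chromosome 15, 13028701 to 13173675) was at 3.88, 2.82 and 5.79 CPM in controls and 6.52, 10.4 and 6.69 CPM in mutants. The groups were apart by less than 1 CPM, and the log2 fold change was 0.92 (SE 0.39, adjusted p = 0.313, and 0.192 with the block). Of 8 neuronal markers 5 were tested and 1 rose, the microtubule protein gene Map2 (7.10 ± 1.37 and 19.4 ± 3.40 CPM, adjusted p = 0.0188), and the part of the neuronal markers in the levels of Cdh4 and Cdh6 was not tested.

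Ctnnd2, the delta-catenin of neurons (chromosome 15, 30172593 to 31029341), was the 1 tested gene of these with every mutant below every control. It was at 21.3, 42.7 and 18.7 CPM in controls and 11.5, 15.9 and 14.3 CPM in mutants. The 8 neuronal markers together summed to 7.40 to 18.9 CPM in controls and 22.6 to 28.9 CPM in mutants. Which cells made the Ctnnd2 RNA was not tested. Control 2 stood high, and the nearest libraries were control 3 and mutant 2. The mean went from 27.6 ± 13.2 to 13.9 ± 2.2 CPM, a log2 fold change of -0.99 (SE 0.33, adjusted p = 0.169, and 0.0416 with the block). Without control 2 the log2 fold change was -0.53. Its relative Ctnnd1 (p120-catenin), which steadies cadherins at the membrane, was at 1012 ± 167 and 956 ± 155 CPM, and made up 98.0% and 99.0% of the level of this pair per length.

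The cadherins grouped under vessels and mesenchyme were higher on average in mutants, in part with overlap. Cdh13 (T-cadherin, anchored to the membrane without a tail, chromosome 8, 118283733 to 119324921) was at 89.4, 87.3 and 102 CPM in controls and 112, 127 and 159 CPM in mutants. The groups did not overlap, with a log2 fold change of 0.51 (SE 0.17, adjusted p = 0.180, and 0.0281 with the block) and same-numbered ratios of 1.25, 1.45 and 1.56. Its level was above the sum of the 12 endothelial genes in both groups (13.5 to 23.7 and 17.4 to 49.8 CPM). Which cells made the Cdh13 RNA was not tested. Cdh5 (VE-cadherin of endothelium) was at 3.27, 4.39 and 5.85 CPM in controls and 5.76, 6.32 and 10.4 CPM in mutants. It was highest in mutant 3, the library highest in endothelial markers, and without mutant 3 its log2 fold change was 0.42 in place of 0.73 (adjusted p = 0.441 with all libraries). Of 12 endothelial genes 7 were tested, none was called by any of the 3 tools or had an unadjusted p under 0.05, and 6 of the 7 log2 fold changes were above 0, with a median of 0.39. Ptprb was at 3.24 ± 2.68 and 6.56 ± 4.82 CPM, Vwf at 1.35 ± 1.94 and 3.50 ± 3.99, and Pecam1 at 5.74 ± 0.375 and 5.86 ± 2.86. Of the 5 below the filter the receptor genes Kdr (0.394 ± 0.233 and 1.99 ± 1.74 CPM) and Tie1 (0.0855 ± 0.0953 and 1.22 ± 0.942 CPM) and Emcn (0.0378 ± 0.0655 and 0.657 ± 0.648 CPM) were higher in each mutant than in each control, and all 3 were highest in mutant 3. Cldn5 (0.386 ± 0.555 and 0.288 ± 0.119 CPM) and Esam (0.218 ± 0.189 and 0.789 ± 0.626 CPM) overlapped between the groups. All 5 averaged at most 0.394 CPM in controls, so these differences rest on few reads. The part of endothelial RNA in the level of Cdh5 was not tested. Cdh11, a cadherin of mesenchyme, was at 5.86, 8.53 and 10.5 CPM in controls and 15.7, 20.1 and 8.82 CPM in mutants, with mutant 3 below control 3. Its log2 fold change was 0.84 (SE 0.36, adjusted p = 0.307). Of 10 fibroblast genes Thy1 and Fbn1 rose (adjusted p = 0.00761 and 0.0137), while Col1a1 was at 132 ± 37.4 and 102 ± 33.7 CPM, and the part of fibroblast RNA in the level of Cdh11 was not tested.

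Nectins start cell contacts that cadherins then strengthen. Nectin4, of embryonic epidermis and hair follicles (chromosome 1, 171370099 to 171388598), was at 44.0, 22.3 and 30.8 CPM in controls and 46.9, 51.0 and 58.3 CPM in mutants. The groups parted by the small gap between control 1 and mutant 1. Its log2 fold change was 0.69 (SE 0.25, adjusted p = 0.224, and 0.0656 with the block), with same-numbered ratios of 1.07, 2.29 and 1.89. Nectin1 was at 97.6 ± 15.1 and 131 ± 37.7 CPM (0.43, SE 0.22, adjusted p = 0.428), and without mutant 3 its log2 fold change was 0.18. Afadin (Afdn), which anchors both to actin, was at 297 ± 58.2 and 362 ± 73.9 CPM (0.29, SE 0.19, adjusted p = 0.565, and 0.0798 with the block). Its log2 fold change was 0.105 without mutant 3 and 0.47 without control 3.

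**Figure D4:**
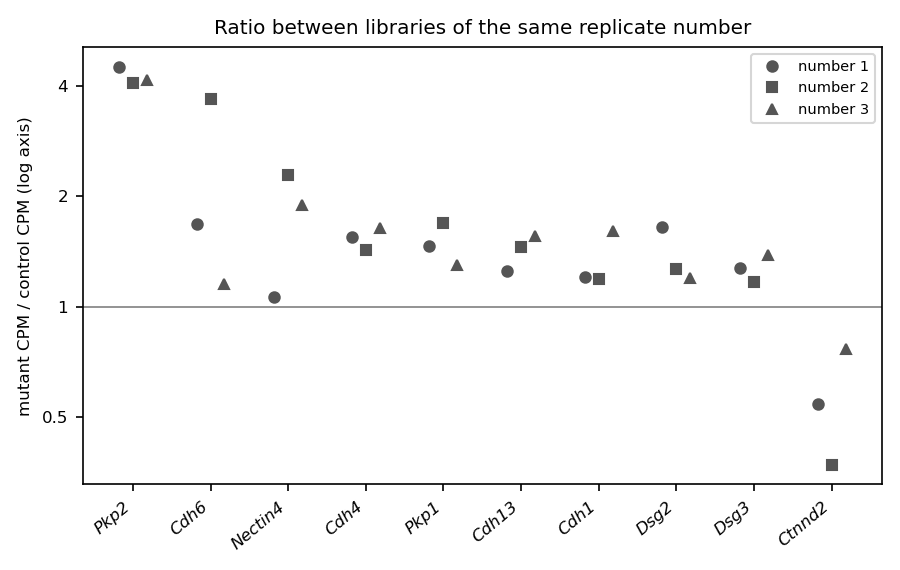
Mutant CPM divided by control CPM (y axis, log scale) for libraries of the same replicate number, for the 10 genes called with the replicate block or without overlap between groups. The 3 ratios of Pkp2 lie between 4.09 and 4.51, those of Cdh6 spread from 1.16 to 3.69, and those of Ctnnd2 are all under 1.

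The calls made with the replicate block were repeated without each pair of same-numbered libraries, a step added after the values were seen. Pkp1 and Pkp2 were called in all 3 of these fits and Dsg2 in those without number 2 or 3. Cdh1 was called without number 2 only, and Cdh13 and Ctnnd2 without number 3 only. Dsg3 was called in none. Nectin4 was called without number 1 or 3, Dsg1b without number 1 and Cdh11 without number 3.

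Many of these genes were highest in the libraries numbered 3. In 22 of the 29 tested genes (75.9%) the library numbered 3 was the highest in both groups, which held for 20.4% of all tested genes. Jup was at 882, 816 and 1873 CPM in controls and 857, 915 and 1864 CPM in mutants. Number 3 was thus 2.21 and 2.10 times the mean of the other 2 libraries of its group, while the same-numbered ratios of mutant to control were 0.971, 1.12 and 0.995. Dsp (1.57 and 1.69 times), Pkp3 (1.88 and 2.15 times), Vcl (1.64 and 1.77 times) and Dsg3 (1.56 and 1.76 times) were alike in this, and Dsc1 was the opposite (0.688 and 0.681 times). The median over the 29 genes was 1.38 times in both groups, against 0.974 and 0.966 times over all tested genes. The sum of the 3 sort genes (Epcam, Itga6 and Ly6a) was also highest in number 3 (1180 and 1290 CPM, against 691 to 839 CPM in the other libraries). So was that of the 8 basal keratinocyte genes (17670 and 20900 CPM, against 14120 to 16210 CPM). Epcam and Itga6 are in both lists, so these sums are not separate observations. The part of the sort and basal keratinocyte genes in this pattern was not tested, and the labels do not say what a number marks.

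**Figure D5:**
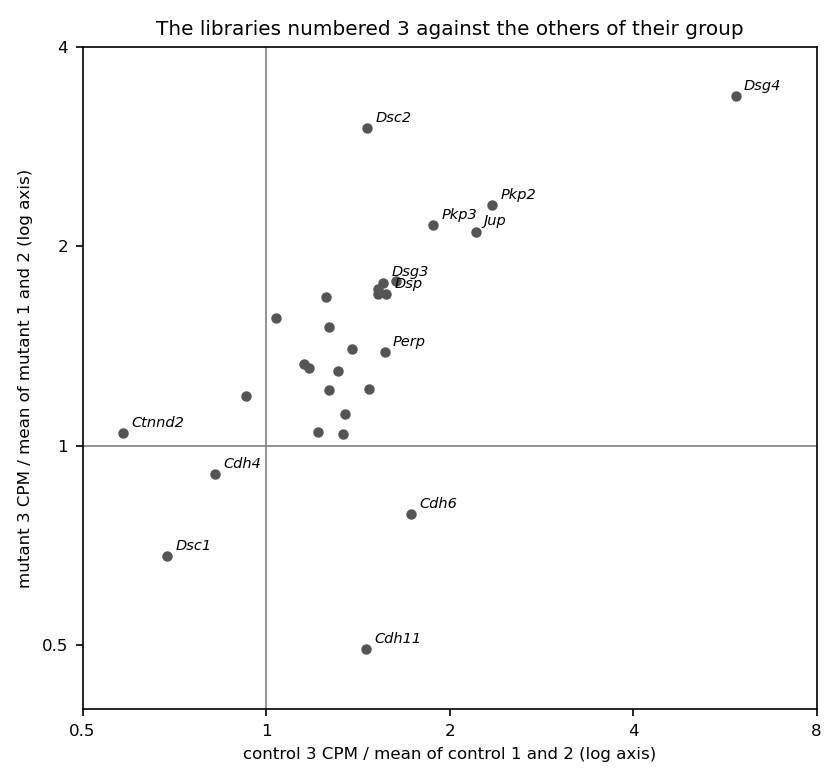
Level in the library numbered 3 divided by the mean of the other 2 libraries of its group, in controls (x axis) and mutants (y axis), both on log scales, 1 point per tested gene. Most of the 29 points lie above 1 on both axes, with Dsg4 at 5.89 and 3.37, Jup at 2.21 and 2.10, and Dsc1 under 1 on both.

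Other genes of these junctions, from a list of genes outside the 33, showed no calls. Of 7 further desmosome genes 6 were tested, none was called by edgeR, DESeq2 or limma-voom, none had an unadjusted p under 0.05, and the median log2 fold change was 0.11. They included the plakin genes Evpl (131 ± 75.4 and 130.5 ± 45.1 CPM) and Ppl (947 ± 549 and 947.5 ± 369 CPM), whose products link desmosomes to the cornified envelope. Of 20 listed adherens junction genes 19 were tested and none was called by the 3 tools or with the block, with 1 at an unadjusted p under 0.05 (Shroom3, 80.6 ± 8.45 and 113 ± 31.0 CPM) and a median of 0.09. Ctnnb1 (beta-catenin), which joins cadherins to alpha-catenin and also carries the Wnt signal, was at 988 ± 148 and 1043 ± 52.9 CPM. Of 13 further cadherin genes only Cdh24 passed the filter (21.0 ± 9.37 and 18.8 ± 2.38 CPM, adjusted p = 0.881), and Cdh18 and Cdh26 had no read in any library.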

How the data were processed

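Each library has a deposited table of gene symbols with raw, whole-number counts, judged from the values. The submitters' processing notes name mm10, HTSeq 0.6.1, TopHat2 2.0.13, DESeq2 1.6.3 and Cufflinks 2.2.1 without role or order. Annotation release and strand setting: not given in the sources used here. Counts were tested with edgeR 4.0.16 in R 4.3.3 (quasi-likelihood test, TMM factors, filterByExpr, group as the only term, Benjamini-Hochberg adjustment over the 14345 genes tested, threshold 0.05). DESeq2 1.42.0, limma-voom (limma 3.58.1) and the other settings given at the end were alternatives. CPM use TMM effective library sizes, the SE comes from the F statistic, and exon length is the union of GENCODE vM21 exons (GRCm38). The edgeR, DESeq2 and limma-voom fits with group as the only term were run on simulated data, and the replicate block fit was not. No pair of libraries agreed within sampling noise (chi-square per degree of freedom at least 25.1).

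With sex genes left out, each library's deviation from its group mean correlated with that of the same-numbered library of the other group at 0.168 to 0.363, and with that of a differently numbered one at no more than 0.0891. The correlation of same-numbered libraries was 0.205, 0.168 and 0.363 for numbers 1, 2 and 3. Deviations within a group balance out, so these correlations are not independent of each other. The numbers were taken as pairing the samples, from the data and not from the labels. The block fit thus uses a pairing read from the same data, and its adjusted p-values may be too small. The genes and lists were chosen with earlier results of these data known. Full values are given for genes called with or without the block or without overlap between groups at a log2 fold change of at least 1 in size. Others were given in full for their role after their values were seen. From other lists up to 4 genes are named, called ones first, then by smallest p. Snai1, Twist1, Zeb1, Snai2, Ctnnb1, Evpl, Ppl, Pecam1, Kdr, Tie1, Emcn, Cldn5, Esam, Col1a1, Myl2, Myh6 and Myh7 were named for their role and outside that rule.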

Additional observations from a re-analysis of the deposited data

How the results depend on the processing

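Of all tested genes 430 were called, 1345 with the replicate block and 959 with DESeq2, and 163 (without mutant 2) to 664 (without control 3) without 1 library. Leaving out control 1, control 2 or mutant 1 gave 193, 277 and 218. Of the 33 junction genes 0 were called higher, against 6 with the replicate block, 1 with DESeq2, 1 with no filter (Pkp2 both times) and 0 to 2 without 1 library, the 2 without control 3. None was called lower, against 1 with the replicate block and 0 in the fits without 1 library. With the block but without the pair numbered 1, 2 or 3, which leaves 2 pairs, 4, 4 and 6 were called higher and 0, 0 and 1 lower. The cause of these changes was not tested. With limma-voom, DESeq2-type size factors, library totals only and the stricter filter (1 CPM in 3 libraries) no junction gene was called.

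The log2 fold change of Dsg1a, near 0, was -0.00403 with the replicate block, -0.00412 with DESeq2, -0.00905 with limma-voom and -0.00461 with DESeq2-type size factors. Without 1 library the values of 9 uncalled genes crossed 0, from -0.097 to 0.165 for Dsg1a, -1.33 to 0.909 for Dsg4, -0.242 to 0.27 for Dsc1, -0.546 to 0.309 for Pkp3, -0.248 to 0.189 for Perp, -0.432 to 0.525 for Jup, -0.353 to 0.212 for Dsp, -0.22 to 0.0697 for Ctnnd1 and -0.274 to 0.348 for Vcl. In the other 20 tested genes the sign was the same under all alternatives run. With the longest transcript as gene length the share of Pkp2 among plakophilins rose by 0.702 percentage points in place of 0.433, and without division by length that of cadherins other than Cdh1 and Cdh3 by 1.03 in place of 0.563. Depth limits what can be said of Cdh2, Cdh8, Cdh10 and Ctnna2, which had at most 23 reads per group.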
